A study of Mus musculus with 9 samples.

Results

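The heat shock chaperone genes described here are Hspa1a, Hspa1b, Hsph1, Dnajb1, Hsp90aa1, Hspa8, Hspd1, Hspe1, Hsf1 and Bag3, chosen by symbol as 10 of the 18303 gene rows of a count table from mouse skin wound macrophages. All 10 had a row and all 10 passed the filter on low counts, which left 13322 genes tested. Of the 10, Hsf1 encodes a transcription factor and Bag3 a co-chaperone, and the others encode chaperones or their direct partners. RNA was sequenced from CD45+CD11b+F4/80+ cells sorted out of wounds of C57BL/6J wild-type mice, with 5 libraries from day 14 after injury and 4 libraries from day 4. The wound tissue had been digested with enzymes and disrupted mechanically before sorting, and the cells received no treatment. The labels give neither the age of the mice nor whether libraries came from separate animals or pools, and the spread that the p-values rest on, that between libraries, may be technical. Because the samples are bulk RNA, fewer cells of a type and less RNA per cell cannot be told apart.

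Heat shock proteins keep other proteins folded. HSP70 binds stretches of unfolded chain in a cycle driven by ATP, J proteins such as Dnajb1 deliver the substrate and start the cycle, and exchange factors such as Hsph1 (an HSP110) and Bag3 release the nucleotide and end it. HSP90 takes over folded intermediates of kinases and receptors, and Hspd1 (HSP60) with its lid Hspe1 (HSP10) folds proteins inside mitochondria. Heat and other protein damage free the factor HSF1, which binds repeats of the 5-base unit NGAAN, called heat shock elements, in the promoters of the inducible genes. Hspa8 and Hsp90ab1 are the constitutive counterparts of the inducible HSP70 genes and of Hsp90aa1.

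The bases before the starts of 4 members are shown because they hold matches to the heat shock element. The sequences come from a set of RefSeq promoters on GRCm38.p6. The set held promoters of 7 of the 10 members and none for Hsp90aa1, Hspa8 and Hsf1. Each is the 150 bases before an annotated start, written 5′ to 3′, and capitals mark matches to the paired units TTCNNGAA or GAANNTTC.
Hspa1a, chr17:34972157-34972306, minus strand: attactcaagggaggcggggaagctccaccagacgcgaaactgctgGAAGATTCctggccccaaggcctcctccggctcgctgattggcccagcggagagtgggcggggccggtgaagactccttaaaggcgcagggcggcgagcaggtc
Hspa1b, chr17:34959239-34959388, minus strand: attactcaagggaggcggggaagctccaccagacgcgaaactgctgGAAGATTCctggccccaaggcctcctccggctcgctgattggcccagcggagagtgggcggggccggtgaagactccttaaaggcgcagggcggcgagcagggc
Hsph1, chr5:149636337-149636486, minus strand: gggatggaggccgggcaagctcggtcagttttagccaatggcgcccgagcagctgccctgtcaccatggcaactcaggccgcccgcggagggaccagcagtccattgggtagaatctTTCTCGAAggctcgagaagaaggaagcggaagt
Hspe1, chr1:55087998-55088147, plus strand: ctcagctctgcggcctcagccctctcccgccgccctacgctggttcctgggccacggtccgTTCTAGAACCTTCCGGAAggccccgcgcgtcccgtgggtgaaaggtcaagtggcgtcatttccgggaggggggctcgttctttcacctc

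Both motifs read the same on both strands, and in the 250 bases before a start they occurred in 8.11% (TTCNNGAA) and 7.73% (GAANNTTC) of 27025 genes with a promoter in the table. Hspa1a and Hspa1b each held 1 match, GAAGATTC, from 104 to 97 bases before the start. Hsph1 held 1, TTCTCGAA, from 33 to 26 bases before the start used here and 54 to 47 bases before another of its starts. The annotated span of Hsph1 reaches farther upstream, to 149636498, so the stretch shown lies inside that span. No window was taken from that outer end. Hspe1 held 3 overlapping matches that join into 1 block of 4 units, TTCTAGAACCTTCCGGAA, from 89 to 72 bases before its start. A block of this form, a pair of TTCNNGAA with any 2 bases between, was found before 4 genes of the 27025 (0.0148%). Hspe1 and Hspd1 are both among the 4, since the block lies between the start of Hspe1 and 1 start of Hspd1. Hspd1 runs the other way on the minus strand. From that start of Hspd1, 216 bases from that of Hspe1, the same block lies 144 to 127 bases upstream. Counted from the other annotated start of Hspd1 the block lies inside the gene, and the window before that start had no match. In the 300-base window that runs past the start, Hsph1 held 3 matches in all. Bag3 had none in the 250 bases before its start and 1 in the window that runs past it, and neither start of Dnajb1 had one. The letters TATAAA were found before none of the 7 members and before 14.3% of all genes. The promoters of Hspa1a and Hspa1b differed at 3 of 250 bases, 1 of them within the stretch shown.

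Hspa1a lies on chromosome 17 (34969359 to 34972156, minus strand, GRCm38) and Hspa1b beside it (34956429 to 34959238, minus strand). Both are genes of 1 exon, and their coding sequences were 99.6% identical, with 8 differences over 1926 aligned bases and 1 identical run of 638 bases. Reads from this pair could therefore be assigned to either row, and the deposited counts of both are fractional, so single values of the 2 genes are uncertain and their sum is given too. In the GENCODE M21 annotation, Hspa1a is overlapped by Gm20481 on the other strand, and the library kit does not mark strand, so reads of the 2 strands cannot be told apart. Hspd1 and Hspe1 overlap head to head by their annotated ends on chromosome 1, with the same limit for the shared stretch.

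Total counts ran from 17982633 to 50445171 in the day 14 libraries and from 26479017 to 57809918 in the day 4 libraries. In day 14 replicate 5 the counts ended within Aplp2 on chromosome 9 (31149557 to 31211848). All 482 well-counted genes of chromosome 9 beyond that gene were at 0 in it, and 0 of the 102 before it. Of the members, only Hspa8 (chromosome 9, 40801276 to 40805202) lies beyond this break, and its values come from the 8 other libraries. Levels are given as CPM (counts scaled to a common total over the genes up to the break) after TMM, which corrects for differences in library makeup. Tests are edgeR's quasi-likelihood test of day 14 over day 4 with Benjamini-Hochberg adjustment over all 13322 genes, called at an adjusted p under 0.05.

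Most of the chaperone genes were higher in day 14 macrophages. Of the 10 members, 8 rose, 0 fell, and Hspa8 and Hsf1 did not pass, with a median log2 fold change of 0.84. Over all genes tested, 2150 were called higher, which is 16.1%, and 1985 lower, which is 14.9%, with a median log2 fold change of 0.01. In the same 8 members, every day 14 library lay above every day 4 library, which held for 13.0% of all genes tested. The members were picked with these data known, so the count describes them and is no test of the group. The largest changes were those of Hspa1b, Hsph1, Hspa1a and Hsp90aa1, from 2.58-fold to 3.23-fold. These 4 of the 10 were called higher and at least 2-fold, against 4.91% of all genes tested, and the smallest that passed was that of Dnajb1, 1.36-fold.

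**Figure D1:**
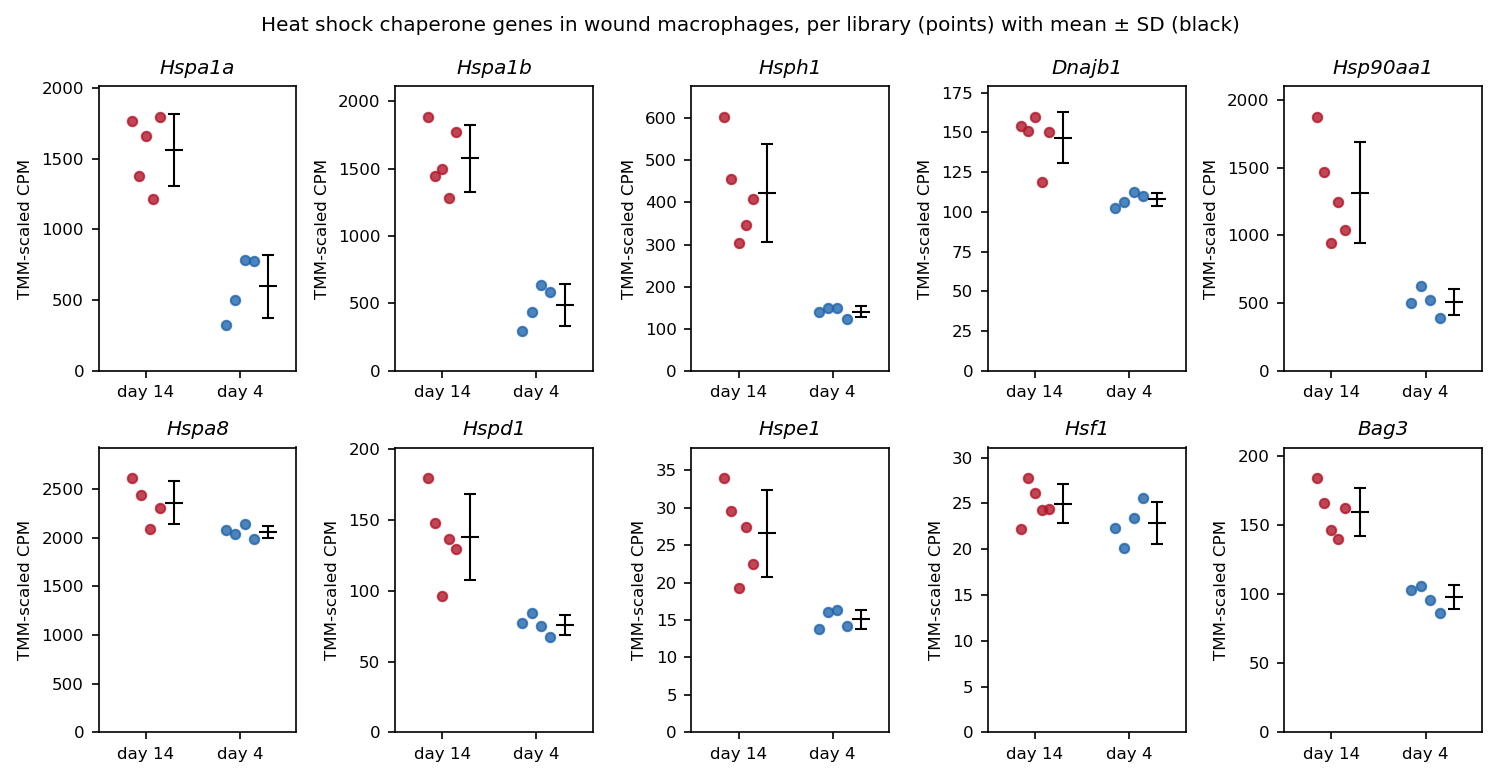
Level of each chaperone gene in TMM-scaled CPM (vertical axes from 0) in the 5 day 14 libraries (red, left) and the 4 day 4 libraries (blue, right), with mean ± SD in black. Points of both days do not overlap for 8 genes and overlap for Hspa8, with 4 day 14 points, and Hsf1.

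The inducible HSP70 genes were among the most changed. Hspa1a stood at 1763, 1376, 1661, 1216 and 1797 CPM in day 14 replicates 1 to 5, and at 326, 503, 781 and 780 CPM in day 4 replicates 1 to 4. Hspa1b stood at 1886, 1448, 1499, 1281 and 1771 CPM at day 14, against 294, 434, 640 and 585 CPM at day 4. In both genes the lowest day 14 library, replicate 4, was well above the highest day 4 library, and the day 4 libraries spread more widely than those of day 14. The coefficient of variation of Hspa1a was 16.3% at day 14 and 37.4% at day 4. Hspa1a averaged 1562.5 ± 255 CPM at day 14 and 598 ± 223 CPM at day 4 (SD, n = 5 and 4; log2 fold change 1.39 ± 0.24 SE, edgeR adjusted p = 0.00122). Hspa1b averaged 1577 ± 247 CPM at day 14 and 488 ± 156 CPM at day 4 (log2 fold change 1.69 ± 0.21, edgeR adjusted p = 0.000104). Summed, the pair had 3139.6 ± 489 CPM at day 14 and 1085.5 ± 379 CPM at day 4, 2.89-fold higher (log2 fold change 1.53 ± 0.22, edgeR adjusted p = 0.000389). Depth moved with the level within day 4: the libraries with 50162708 and 57809918 counts were the 2 high ones, those with 26479017 and 27381291 the 2 low ones. The 6 shallower libraries were day 14 replicates 2 to 5 and day 4 replicates 1 and 2, the 2 low ones. In these 6 alone the log2 fold change of Hspa1a and Hspa1b summed was 1.94 ± 0.21 (edgeR adjusted p = 0.000424). With log10 library size as a covariate it was 1.83. Leaving out the 2 high day 4 libraries raises the fold in itself, so in this subset depth and their level cannot be told apart. The median log2 fold change of the 10 members was 0.68 in the 6 shallower libraries and 0.93 with that covariate, against 0.84 in the main fit. The part of depth in these values was not tested further.

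The share of the pair's counts given to Hspa1b also differed between days. It averaged 50.3 ± 1.77% at day 14 and 45.4 ± 1.95% at day 4 (SD, n = 5 and 4; exact permutation test, two-sided p = 0.0159, adjusted over 4 ratios 0.0318). The groups only just missed each other: day 14 replicate 3 was at 47.44% (Wilson 95% interval 47.1 to 47.8%) and day 4 replicate 1 at 47.4% (46.6 to 48.2%), and these intervals, which cover counting error only, overlap. Within day 4 the share was 47.4, 46.29, 45.03 and 42.85% in replicates 1 to 4, lowest in the 2 deep libraries, replicates 3 and 4. At day 14 the deepest library, replicate 1, had the highest share, 51.69%. The part of depth in the share was not tested. How the authors split reads of the near-identical copies is not given in the sources used here.

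Hspa8, the constitutive cytosolic HSP70, did not pass. It had 2614, 2444, 2090 and 2302 CPM in day 14 replicates 1 to 4, and 2076, 2042, 2140 and 1990 CPM in day 4 replicates 1 to 4. Day 14 replicate 3 lay inside the day 4 range and the other day 14 libraries above it. The log2 fold change was 0.20 ± 0.10 SE (n = 4 each, edgeR adjusted p = 0.145), and with all genes fitted on all 9 libraries, the 0 of day 14 replicate 5 included, it was -0.13 ± 1.47. The counts of the inducible pair over those of Hspa8 in the same library came to 1.396, 1.16, 1.51 and 1.08 in day 14 replicates 1 to 4, against 0.298, 0.459, 0.664 and 0.686 in day 4 replicates 1 to 4. The pair thus held more counts than Hspa8 in each of these day 14 libraries and fewer in each day 4 library, a log2 difference in the ratio of 1.35 (exact permutation test, two-sided p = 0.0286, the smallest these 8 libraries allow, adjusted over 4 ratios 0.0381). Snord14c, Snord14d and Snord14e lie inside Hspa8 on the same strand.

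Of 11 other HSP70 family genes tested, 0 rose and 2 fell (Hspa4l and Hspa12b), beside 16.1% higher and 14.9% lower over all genes tested, with a median log2 fold change of 0.01. Hspa5, the HSP70 of the endoplasmic reticulum (BiP), averaged 1997 ± 137 CPM at day 14, against 1869 ± 161 CPM at day 4, and did not pass. Hspa9, that of mitochondria (mortalin), had 258 ± 31.9 CPM at day 14, against 261 ± 36.5 CPM at day 4. Hspa4l, an HSP110 relative of Hsph1, fell to 48.9 ± 4.22 CPM at day 14, against 68.5 ± 14.7 CPM at day 4 (log2 fold change -0.48 ± 0.13, edgeR adjusted p = 0.0123).

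The exchange factors and the J protein among the members rose by different amounts. Hsph1 (chromosome 5, 149616843 to 149636498) had 604, 454, 302, 347 and 408 CPM in day 14 replicates 1 to 5, against 140, 150, 149 and 122 CPM at day 4. Every day 14 library, replicate 3 the lowest, was above the day 4 libraries, which were close together. Its log2 fold change was 1.59 ± 0.18 (3.02-fold, edgeR adjusted p = 4.9e-05), the lowest adjusted p of the 10. Bag3 (chromosome 7, 128523583 to 128546981), which links HSP70 to the disposal of damaged proteins by autophagy, had 184, 165, 146, 140 and 162 CPM at day 14 and 103, 106, 95.8 and 86.5 CPM at day 4. Its groups were well apart and narrow (log2 fold change 0.71 ± 0.10, edgeR adjusted p = 0.000247). Dnajb1 (chromosome 8, 83608175 to 83612653), the J protein known as HSP40, had 154, 151, 160, 119 and 150 CPM at day 14 and 103, 106, 112 and 110 CPM at day 4. Day 14 replicate 4 lay near the day 4 range, and the other day 14 libraries were close together (log2 fold change 0.44 ± 0.09, edgeR adjusted p = 0.00346). In the 6 shallower libraries alone Dnajb1 did not pass (0.46 ± 0.14, adjusted p = 0.0536).

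Among the 23 other J proteins tested, 6 rose and 3 fell, with a median log2 fold change of 0.22. Over all genes tested, 16.1% were called higher and 14.9% lower. Dnaja1, a cytosolic HSP70 partner, averaged 278 ± 51.1 CPM at day 14, against 147 ± 13.6 CPM at day 4 (log2 fold change 0.92 ± 0.13, edgeR adjusted p = 0.000307). Dnajb4, a relative of Dnajb1, averaged 121 ± 21.9 CPM at day 14, against 62.9 ± 10.5 CPM at day 4 (0.95 ± 0.15, edgeR adjusted p = 0.000506). The day 14 libraries of both genes lay above all day 4 libraries. Dnajb12 and Dnajc10, J proteins of the endoplasmic reticulum, fell (log2 fold changes -0.62 and -0.33, edgeR adjusted p = 0.000973 and 0.00713). Dnajc13, an endosomal J protein and the one with the most counts in the list, averaged 313 ± 27.7 CPM at day 14, against 348 ± 5.13 CPM at day 4 and did not pass (edgeR adjusted p = 0.212, 8 libraries).

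Hsp90aa1 (chromosome 12, 110691036 to 110696395), the inducible cytosolic HSP90, rose 2.58-fold. It had 1877, 1466, 941, 1247 and 1040 CPM in day 14 replicates 1 to 5, against 499, 624, 525 and 391 CPM in day 4 replicates 1 to 4. Day 14 replicate 1 was highest and replicate 3 lowest, and all were above the day 4 libraries (log2 fold change 1.37 ± 0.20, edgeR adjusted p = 0.000363). Hsp90ab1, its constitutive counterpart, averaged 1788 ± 133 CPM at day 14, against 1370.4 ± 60.3 CPM at day 4 (log2 fold change 0.38 ± 0.09, edgeR adjusted p = 0.00515), and did not pass in the 6 shallower libraries (adjusted p = 0.0813). The ratio of counts of Hsp90aa1 to Hsp90ab1 ran from 0.568 to 0.938 at day 14 and from 0.294 to 0.477 at day 4, without overlap. On the log2 scale the ratio differed by 0.96 (exact permutation test, two-sided p = 0.00794, the smallest these libraries allow, adjusted over 4 ratios 0.0318). Of the 18 genes tested of the HSP90 family other than Hsp90aa1 and its co-chaperones, 3 rose and 1 fell, beside 31.0% of all genes tested that passed in either direction.

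**Figure D2:**
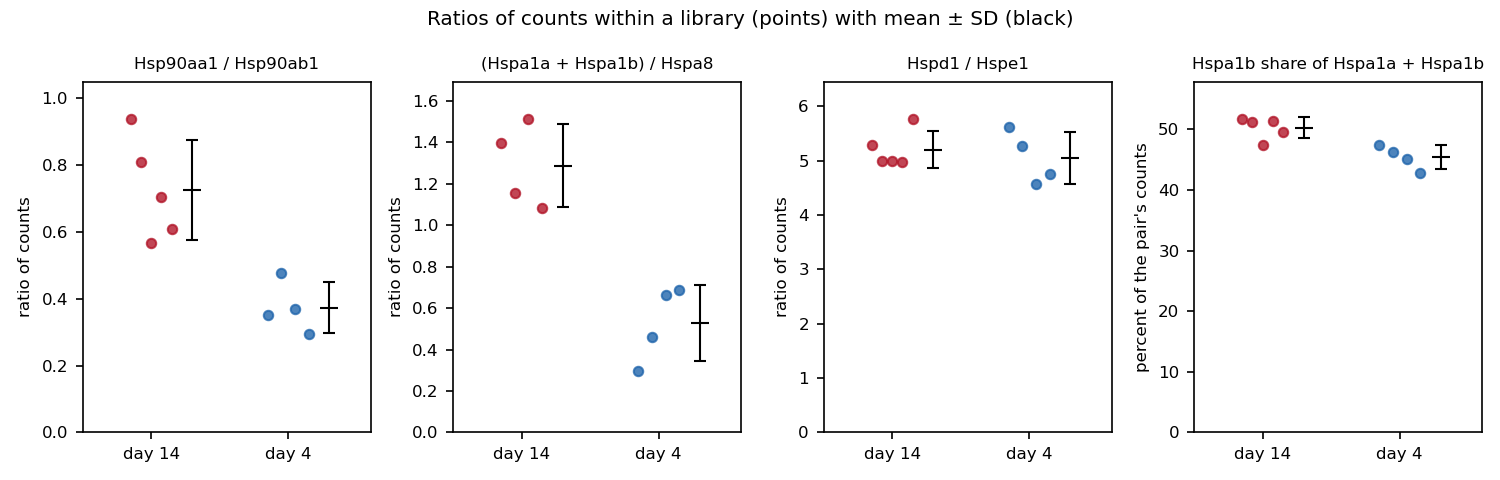
Ratios of counts within each library (points; day 14 red and left, day 4 blue and right; mean ± SD in black), axes from 0. The ratio of Hsp90aa1 to Hsp90ab1 and of the Hspa1a and Hspa1b sum to Hspa8 (no value for day 14 replicate 5) do not overlap between days, the Hspd1 to Hspe1 ratio does, and the Hspa1b share is 50.3% at day 14 and 45.4% at day 4.

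The mitochondrial chaperonin genes rose together. Hspd1 (chromosome 1, 55077833 to 55088243) had 180, 148, 96.4, 137 and 130 CPM in day 14 replicates 1 to 5, against 77.2, 84.5, 74.8 and 67.7 CPM at day 4. Hspe1 (chromosome 1, 55088148 to 55091317) had 34.0, 29.6, 19.3, 27.5 and 22.5 CPM at day 14, against 13.7, 16.0, 16.4 and 14.2 CPM at day 4. In both genes day 14 replicate 1 was highest and replicate 3 lowest, yet above every day 4 library. The log2 fold changes were 0.86 ± 0.15 for Hspd1 and 0.82 ± 0.15 for Hspe1 (edgeR adjusted p = 0.00101 and 0.00163). The log2 ratio of their counts was 2.38 ± 0.09 at day 14 and 2.33 ± 0.14 at day 4 (SD, n = 5 and 4; difference 0.05, exact permutation two-sided p = 0.556), so a difference in ratio between days was not detected. Of 13 other mitochondrial chaperones and proteases tested, 0 rose and 2 fell (Afg3l2 and Dnaja3), beside 16.1% higher and 14.9% lower over all genes tested. Whether these lists differ from the members was not tested. Afg3l2, a protease of the inner membrane, fell to 52.1 ± 1.74 CPM at day 14, against 84.7 ± 10.1 CPM at day 4 (log2 fold change -0.70 ± 0.09, edgeR adjusted p = 0.000106).

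Hsf1 (chromosome 15, 76477362 to 76501155), the factor that drives the heat shock response, had 22.2, 27.8, 26.2, 24.2 and 24.4 CPM at day 14 and 22.3, 20.1, 23.4 and 25.6 CPM at day 4. The groups overlapped, with the lowest day 14 library below 3 of the day 4 libraries. The log2 fold change was 0.13 ± 0.10 and did not pass (edgeR adjusted p = 0.35), and it stayed between 0.07 and 0.26 in 21 alternatives. Of 5 related factors and regulators tested, 0 passed in either direction, beside 31.0% of all genes tested. Hsf2, a second heat shock factor, averaged 25.3 ± 5.69 CPM at day 14, against 21.3 ± 2.32 CPM at day 4 (edgeR adjusted p = 0.239, and 0.0369 without day 14 replicate 3). Hsbp1, which binds HSF1, averaged 108 ± 3.82 CPM at day 14, against 103 ± 3.70 CPM at day 4. Vcp, a segregase for ubiquitinated proteins, averaged 161 ± 18.1 CPM at day 14, against 165 ± 9.38 CPM at day 4.

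**Figure D3:**
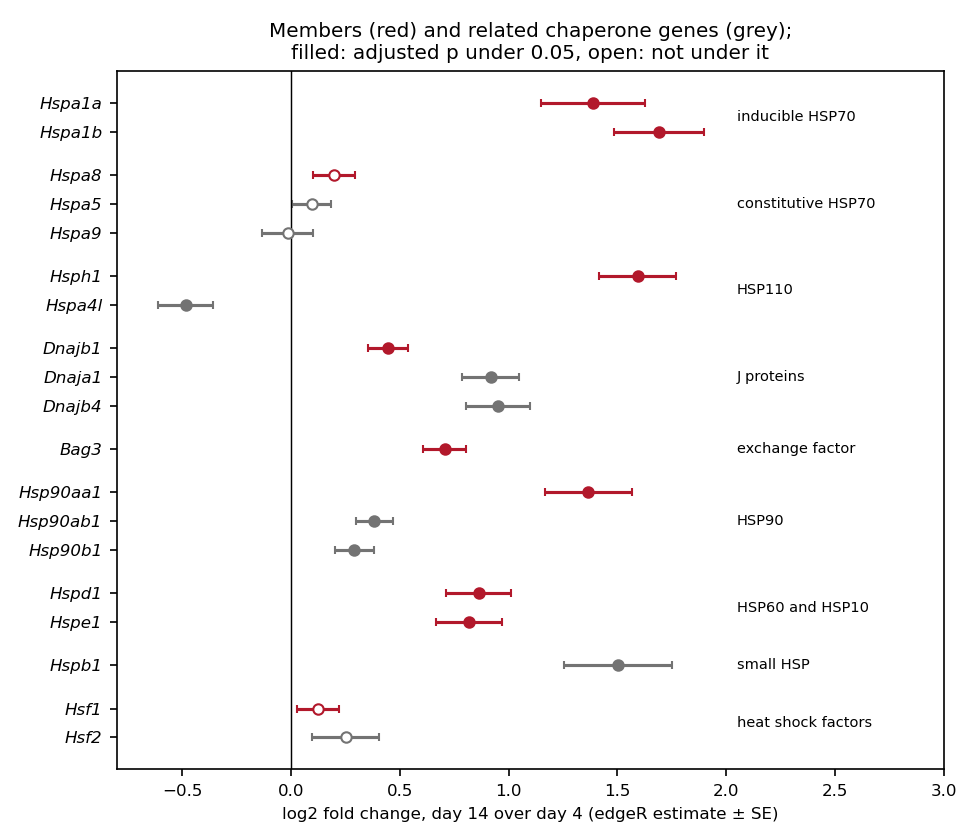
Log2 fold change of day 14 over day 4 (edgeR estimate ± SE) of the 10 genes (red) and of related chaperone genes (grey), grouped by role. The grey genes are a selection. Not shown are, among others, Dnajb12, Dnajc10, Dnaja3 and Hspb8, which fell, and Bag4 and Ppid, which rose. Filled points passed an adjusted p under 0.05. Hspa1a, Hspa1b, Hsph1, Hsp90aa1 and Hspb1 lie farthest right, at 1.37 or more, and Hspa8, Hspa5, Hspa9, Hsf1 and Hsf2 are open.

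The libraries ordered the members in different ways. Relative to the day 4 mean, day 14 replicate 1 was highest of the 5 in Hspa1b, Hsph1, Hsp90aa1, Hspd1, Hspe1 and Bag3, and also in Hspa8 among 4, while it was lowest in Hsf1. Day 14 replicate 3 was lowest in Hsph1, Hsp90aa1, Hspd1, Hspe1 and Hspa8, but not in Hspa1a, Hspa1b or Dnajb1, where replicate 4 was. Without day 14 replicate 1 the log2 fold change of Hsp90aa1 was 1.20 and that of Hsph1 1.43, and without day 4 replicate 1 that of Hspa1a was 1.18. Hsp90aa1, Hsph1 and Hspa1a passed in each fit that left out 1 library. Day 14 replicate 1 was also the deepest day 14 library, with 50445171 counts, and the part of depth in this order was not tested.

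**Figure D4:**
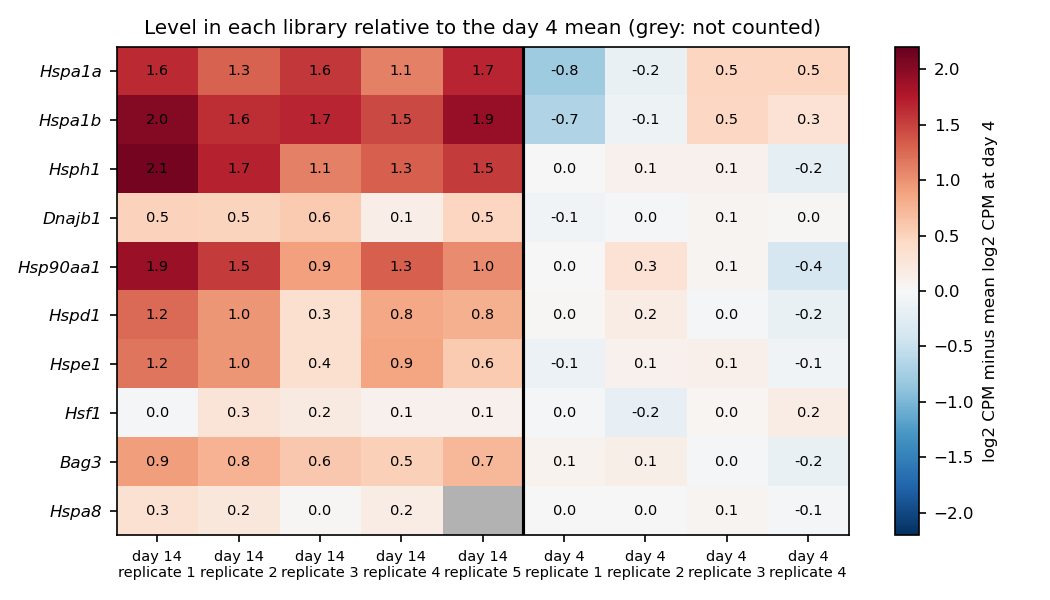
Log2 CPM of each gene in each library minus its mean log2 CPM at day 4 (color and number), day 14 libraries left of the line and day 4 libraries right. Hspa1a and Hspa1b vary from -0.8 to 0.5 and from -0.7 to 0.5 among day 4 libraries, and Hspa8 has no value in day 14 replicate 5 (grey).

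By the root mean square difference of centred log2 CPM over the 9 libraries, the gene closest to Hspa1a among 9154 compared was Hspa1b (0.17 log2 units, against a median of 0.84 over all). Next came Cd209c, a C-type lectin (0.23), Ciita, the MHC class II transactivator (0.25), Tnfrsf25, a death receptor (0.26), and Capn5, a calpain (0.26). Closest to Hspd1 were Hspe1 (0.10), Dnaja1 (0.10), Mctp1, a membrane protein with C2 domains (0.11), Dnajb4 (0.11) and 1810026B05Rik (0.12), against a median of 0.50. Among the members, Bag3 lay 0.17 from Hspd1 and Hsp90aa1 0.29, while both were over 0.5 from Hspa1a (0.57 and 0.54). These distances rest on the same libraries and depths. Reads of Hspa1a and Hspa1b could be assigned to either row, so the distance between these genes is not one between independent measurements.

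Per kilobase of transcript, with lengths from GENCODE M21, Hspa8 had the highest level of the 10 on both days. At day 14 the order of mean levels was Hspa8 (987 CPM per kb), Hspa1b (563), Hspa1a (527), Hsp90aa1 (400.5), Hsph1 (111), Bag3 (62.2), Hspd1 (57.0), Dnajb1 (49.0), Hspe1 (34.3) and Hsf1 (11.9). At day 4 it was Hspa8 (861 CPM per kb), Hspa1a (201), Hspa1b (174), Hsp90aa1 (155), Bag3 (38.1), Hsph1 (36.9), Dnajb1 (36.0), Hspd1 (31.4), Hspe1 (19.5) and Hsf1 (10.9). The ranges over libraries of Hspa1a, Hspa1b and Hsp90aa1 overlapped each other on both days, as did those of Hspd1 with Bag3, Dnajb1 and Hspe1 at day 14 and of Bag3, Hsph1, Dnajb1 and Hspd1 at day 4. At day 14 Bag3 (54.5 to 71.7 CPM per kb) and Dnajb1 (39.6 to 53.4) did not overlap. Hspa8 and Hsf1 on both days, Hsph1 at day 14 and Hspe1 at day 4 did not overlap their neighbours in the order.

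Other genes known to be induced by heat went both ways. Of 22 that are no members, 6 rose and 6 fell, with a median log2 fold change of 0.06. The counts in this paragraph stand beside 16.1% called higher and 14.9% called lower over all genes tested. Hspb1, the small heat shock protein HSP25, rose to 13.8 ± 4.31 CPM at day 14, against 4.85 ± 1.41 CPM at day 4 (2.83-fold, edgeR adjusted p = 0.000777). Dnaja1, Dnajb4 and Hsp90ab1, also among those that rose, are described above. Hsp90ab1 is counted in this list although it is named above as the constitutive counterpart of Hsp90aa1. Of 6 small heat shock proteins tested, Hspb1 rose and Hspb8 fell. Hmox1, the heme-degrading enzyme, fell to 1092.5 ± 190 CPM at day 14, against 2334 ± 273 CPM at day 4 (log2 fold change -1.10 ± 0.13, edgeR adjusted p = 9.9e-05). P4ha1, a collagen prolyl hydroxylase, fell to 157 ± 9.43 CPM at day 14, against 259 ± 38.5 CPM at day 4 (-0.72 ± 0.10, edgeR adjusted p = 0.000283). The largest change of the 22 was that of Serpinh1, chosen after its values were seen. It fell to 82.5 ± 22.1 CPM at day 14, against 288 ± 109 CPM at day 4 (-1.80 ± 0.24, edgeR adjusted p = 0.00029). Of 16 genes of endoplasmic reticulum chaperones, Herpud1, of protein disposal, and Hsp90b1 rose and P4hb, a disulfide isomerase, fell (log2 fold change -0.69 ± 0.10, edgeR adjusted p = 0.000335). Herpud1 averaged 116 ± 18.8 CPM at day 14, against 79.7 ± 7.01 CPM at day 4. Of 13 subunits of the cytosolic chaperonin TRiC and prefoldin, which fold actin and tubulin, 0 rose and Cct7 fell, and Cct8 averaged 230 ± 26.8 CPM at day 14, against 212 ± 13.8 CPM at day 4.

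**Figure D5:**
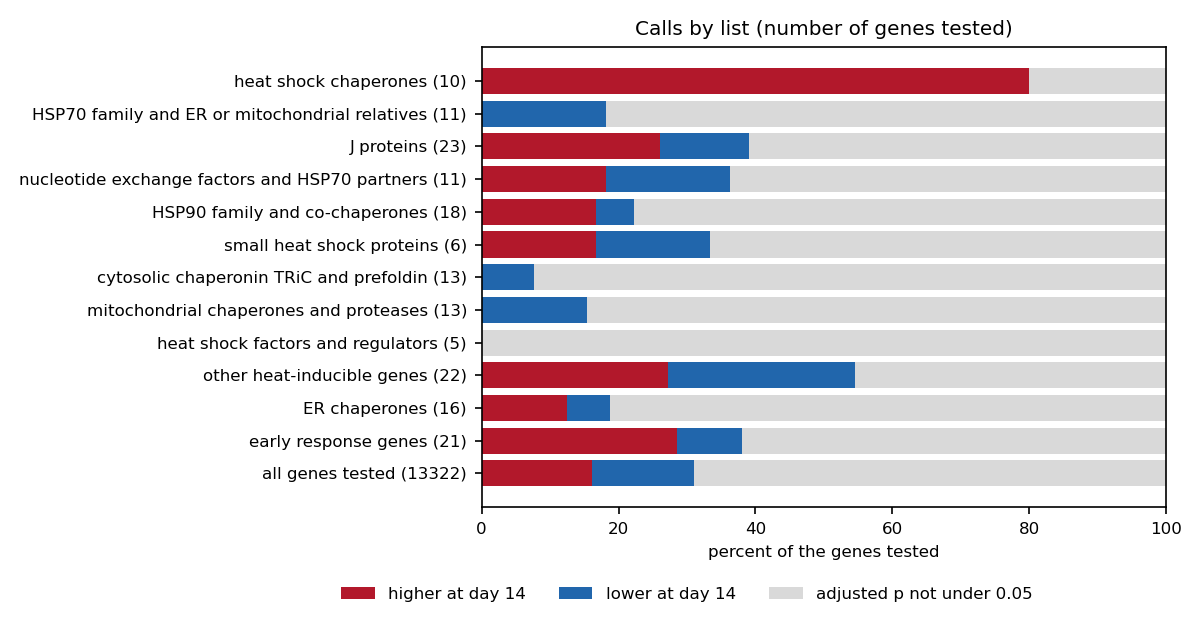
Percent of the genes tested in each list that were called higher (red) or lower (blue) at day 14 or not called (grey), with the number tested in brackets. Of the chaperone members 8 of 10 were higher, while all genes tested had 16.1% higher and 14.9% lower.

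Several calls in these lists changed in fits that left out 1 library. Of 11 other exchange factors and HSP70 partners tested, Bag4 (log2 fold change 0.41) and Grpel2 (0.33) rose and Hspbp1 (-0.50) and Bag2 (-0.60) fell. Over all genes tested, 16.1% were called higher and 14.9% lower. St13, an HSP70 partner, averaged 186 ± 19.0 CPM at day 14, against 172 ± 5.62 CPM at day 4, and did not pass. Bag4 lost its call without day 4 replicate 1, 3 or 4 or day 14 replicate 4 (adjusted p up to 0.0665). Grpel2 lost it without day 4 replicate 3 or 4 or day 14 replicate 1, 4 or 5 (up to 0.109). Hspbp1 kept its call only without day 4 replicate 2 or day 14 replicate 3 (otherwise up to 0.130), and Bag2 only without day 14 replicate 5 (otherwise up to 0.117). Hspa12b (-0.89), a distant HSP70 relative, lost its call without day 4 replicate 3 or 4 or day 14 replicate 1, 2, 4 or 5 (up to 0.145). Dnaja3 (-0.26), a mitochondrial J protein, kept it only without day 4 replicate 2 or day 14 replicate 5 (otherwise up to 0.109). Hsp90b1 (0.29), the HSP90 of the endoplasmic reticulum, lost it without day 4 replicate 3 or 4 or day 14 replicate 1, 2 or 4 (up to 0.0883). Ppid (0.50), an HSP90 co-chaperone, lost it without day 4 replicate 1, 3 or 4 or day 14 replicate 1 or 2 (up to 0.0682), and Fkbp8 (-0.40) without day 4 replicate 4 or day 14 replicate 1 or 2 (up to 0.0599). Hspb8 (-0.58), a partner of Bag3, lost it without day 4 replicate 2 or day 14 replicate 1, 2, 4 or 5 (up to 0.0990). Cct7 (-0.21) lost it without day 4 replicate 1 or 2 or day 14 replicate 1, 2 or 4 (up to 0.0924), while Cct4 (0.27, adjusted p = 0.0700) passed without day 4 replicate 2 or day 14 replicate 3. All these adjusted p-values are from edgeR.

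Early response genes and markers of cell types went both ways. The counts below stand beside 16.1% called higher and 14.9% called lower over all genes tested. Of 21 early response genes, which many stimuli induce within minutes, 6 rose and 2 fell, and their summed level ran from 13100 to 17770 CPM at day 14 and from 12020 to 14360 CPM at day 4. Fos averaged 1575 ± 279 CPM at day 14, against 1625 ± 343 CPM at day 4, and did not pass, while Klf6 (log2 fold change 0.59; edgeR adjusted p = 0.0528 in the 6 shallower libraries) and Egr2 (0.69) rose and Ier3 (-0.81) fell. Egr3 (-0.51) also fell, and kept its call only without day 4 replicate 3 or day 14 replicate 3 among 9 libraries left out. The sums below leave out genes beyond the break. Of 16 fibroblast markers, 11 fell and 0 rose, with a summed level of 11020 to 15900 CPM at day 14 and 17080 to 28570 CPM at day 4; Col3a1, a collagen, fell (log2 fold change -0.97) and Fn1, fibronectin, did not pass. Dendritic cell markers rose in 8 of 11 (535 to 628 CPM at day 14 and 282 to 349 CPM at day 4), among them Itgax and Cd209a. Keratinocyte markers rose in 7 of 9 tested, at low levels (15.7 to 24.1 CPM summed at day 14 and 5.86 to 10.8 CPM at day 4), Perp among them and Sfn not. T and NK cell markers ran from 84.5 to 116 CPM at day 14 and from 38.4 to 44.4 CPM at day 4 (2 of 3 tested rose, Cd4 among them, and Thy1 fell). B cell markers ran from 13.1 to 20.6 CPM at day 14 and from 5.27 to 7.54 CPM at day 4 (Cd79b and Igj, both tested, rose). Eosinophil markers ran from 13.9 to 19.9 CPM at day 14 and from 4.23 to 7.26 CPM at day 4 (3 of 3 tested rose, Ccr3 and Prg2 among them). Fitted on all 9 libraries, Thy1 and Ccr3, which lie beyond the break, did not pass (edgeR adjusted p = 0.347 and 0.326). The sums of neutrophil, endothelial and mast cell markers overlapped between days, but single genes passed. Of 9 neutrophil markers tested, 0 rose and Mmp9 fell (61.4 CPM at day 14, against 508 CPM at day 4). Of 9 endothelial markers, 3 rose (Emcn, Tek and Cldn5) and 0 fell. Of 5 mast cell markers tested, Cpa3 and Mcpt4 rose, to 3.73 and 3.11 CPM at day 14 against 1.17 and 0.865 CPM at day 4, and Kit fell. None of the listed markers with a row was at 0 in all libraries. The macrophage and sort markers summed to 20890 to 23120 CPM at day 14 and 19840 to 23430 CPM at day 4, a sum of which Lyz2 was the largest part (11436 CPM at day 14 and 10713 CPM at day 4). Within this list 2 of 10 rose and 4 fell. Of the genes of the sort antigens, Ptprc (CD45) and Emr1 (F4/80) rose (log2 fold changes 0.39 and 0.38) and Itgam (CD11b) fell (-0.44). Fcgr1 (-1.10), Cd68 (-0.47) and Mertk (-0.35) also fell. The neutrophil, endothelial, mast cell and macrophage genes named here were chosen after their values were seen. The part of these cells and of the early response in the chaperone values was not tested.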

How the data were processed

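RNA-seq libraries of sorted wound macrophages (5 from day 14, 4 from day 4) were compared. The submitters' processing notes name Partek 6.6, DESeq2, SAMtools 1.4, HISAT2 2.1.0, CASAVA 1.8 and build mm10; their roles and the annotation are not given in the sources used here. The authors deposited estimated counts per gene, of which a mean of 17.2% per library were not whole, and these were rounded. A second deposited table holds normalized signal, which for the members is the count times 1 factor per library to within 0.00565% in 8 libraries; it was used only beside Hspa8. Columns were matched by the sample numbers in their headers.

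Genes were tested with edgeR 4.0.16 (TMM, filterByExpr, robust glmQLFit, glmQLFTest, two-sided) in R 4.3.3. Positions came from RefSeq on GRCm38.p6 (17103 genes matched by symbol, 1098 by an older name, 102 not). The 1503 genes beyond the break in day 14 replicate 5, 7.53% of the counts elsewhere and 0.0254% there, were left to the 8 other libraries, where 1052 were tested, and p-values were adjusted together. Standard errors were derived from the F statistic. Count ratios between genes were tested with exact permutation tests over libraries, 4 in all. The fit was tested on simulated data with known changes.

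The members and lists were chosen with earlier results of these data known. The genes named are the members, of each list the most abundant and the 2 with the lowest p, every gene of a direction in which 5 or fewer passed, the 2 most abundant of marker lists whose sums did not overlap between days, and the 5 nearest to Hspa1a and to Hspd1 (at least 5 CPM on average; 0.5 was added to CPM before logs). A gene that this rule names is not reported here. Alternatives were scaling by total counts, by the upper quartile or by RLE, DESeq2 1.42.0, limma-voom (limma 3.58.1), no filter, a filter of 5 CPM in 4 libraries, non-robust dispersion, all genes on all 9 libraries or without day 14 replicate 5, library size as a covariate, the 6 libraries under 30000000 counts, and leaving out each library.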

Additional observations from a re-analysis of the deposited data

Results flagged for a closer look

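Dnajb1 in day 14 replicate 4 was at 119 CPM, apart from the 4 other day 14 libraries at 150 to 160 CPM, farther than Dixon's 95% critical value for a group of 5 allows. Among 22 groups of values, 1 had such a library, and chance gives about 1 in 20. Without that library the log2 fold change of Dnajb1 was 0.51, against 0.44 with it.

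Hspa8 in day 14 replicate 5 is listed at 61539.6 in the authors' deposited normalized table, while its count there is 0. The listed value is 0.975 times the mean of the 8 other libraries in that table, and it lies above every day 4 value there (56755.7 to 61028.2). For the members in the 8 other libraries, the table is the count times 1 factor per library to within 0.00565%. The normalized value entered no test.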

How the results depend on the processing

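Of 210 values of the 10 members under 21 alternatives, 209 kept their side of the threshold and 1 did not: Dnajb1 in the 6 shallower libraries (log2 fold change 0.46, edgeR adjusted p = 0.0536). Hspa8, not called in any, turned to -0.13 with all genes on all 9 libraries. The number of members called higher was 7 in the 6 shallower libraries and 8 in each other alternative, and 0 were called lower in any. The 6 shallower libraries called 1030 genes higher and 1042 lower, with fewer samples (day 14 replicates 2 to 5 and day 4 replicates 1 and 2). Leaving out 1 library gave 1593 to 2459 genes called higher and 1442 to 2367 called lower, 8 members higher, and a log2 fold change of the Hspa1a and Hspa1b sum of 1.33 to 1.67. Over all alternatives that sum ran from 1.33 to 1.94 with an adjusted p of at most 0.00184. The lowest log2 fold change over all alternatives was 1.05 for Hsp90aa1, 1.37 for Hsph1, 0.64 for Hspd1 and 0.54 for Bag3. Upper-quartile scaling had 58.1% of calls higher, against 52% with TMM. Of the other named genes, 117 values lost their call, 4 gained one and 1051 changed in neither way. Bag2, Hspa12b, Sfn and Igj had no value under the filter of 5 CPM in 4 libraries. No paired analysis was possible because the labels give the libraries no numbers that the days share. A p above the threshold for Hspa8 and Hsf1 does not show that their levels were equal.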
